A study of Mus musculus with 10 samples.

Results

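The genes described here are 10 members of the transforming growth factor beta superfamily and its antagonists and receptors: Mstn, Gdf11, Inhba, Inhbb, Fst, Acvr2b, Tgfb1, Tgfb2, Tgfb3 and Bmp4. They were taken by gene symbol, from a choice made with earlier results of these data known, and all 10 were found in every table, among 23417 genes listed in each of 3 tables and 23431 in the table with USP10 cells. RNA came from C2C12, a mouse myoblast line that fuses into myotubes in low-serum medium, in 10 libraries. Huwe1, a ubiquitin ligase, was depleted with short hairpin RNAs, in 2 libraries with a hairpin each at day 0 in growth medium, at day 6 in differentiation medium and in day 8 myotubes, whereas the day 8 hairpins differed from those of day 0 and day 6 and were given to cultures that had already begun to differentiate. Each of these time points had 1 control library, labelled wildtype at day 0 and day 6 and non-targeting RNA at day 8, where the table's header calls it wild type. Days count differentiation throughout. Day 6 or day 8 of knockdown below means knockdown cells on that day, and not the time since the hairpins were given. USP10, a deubiquitinase, was overexpressed in a stable line from a cDNA under the EF1a promoter, in 1 library at day 6 of differentiation. The labels name no hairpin for the day 0 and day 6 controls, so there the depletion of Huwe1 and the delivery of a hairpin cannot be told apart. They also name no vector control for the USP10 line, so overexpression, vector and line cannot be told apart either.

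Ligands of this family are secreted as dimers and bind a type II receptor, which recruits and phosphorylates a type I receptor. Myostatin, GDF11, the activins and the TGF-betas act mainly through Smad2 and Smad3, and the bone morphogenetic proteins mainly through Smad1, Smad5 and Smad9. In skeletal muscle, myostatin and the activins restrain growth through the activin type II receptors and follistatin binds and blocks them. TGF-beta inhibits myoblast differentiation in culture and induces matrix genes, while BMP4 can divert C2C12 cells from the muscle to the osteoblast fate.

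Expression was given as FPKM, a fragment count normalized for the length of the transcript and the depth of the library, with 1 value for each condition and table. The 2 knockdown libraries of a time point were pooled in a single value, so that no difference below has a replicate check or a p-value. Each comparison is the log2 ratio of treated to control FPKM within a table, with 0.01 FPKM added to both, and a gene was counted as lower or higher where it had at least 1 FPKM in at least 1 of the columns and differed by at least 2-fold. From the steps between the lowest values, the controls were estimated at 21900000 fragments at day 0, 29900000 at day 6 and 18100000 at day 8, the USP10 library at 27700000 and the control of its table at 7820000. Only 1 day 6 control library is labelled and both day 6 tables name the same read file for their control, yet their control columns differ, and 19.9% of 11459 genes were at least 2-fold apart between them after centring on the median gene. Values of these columns were therefore kept apart.

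The targeted gene Huwe1 was at 38.3 FPKM in control and 15.2 in knockdown cells at day 0, at 35.1 and 21.9 at day 6, and at 55.4 and 33.0 in day 8 myotubes, while Usp10 was at 10.3 in the control and 38.3 in USP10 cells. Usp10 was also at 13.2 and 35.4 FPKM in the day 6 control and knockdown. Its day 0 level was 68.5 FPKM for control and 64.2 for Huwe1-depleted myoblasts, and its day 8 level 14.5 and 13.1. The 38.3 of USP10 cells was thus above the control of its table but below both day 0 columns, which were normalized separately. Summed over 12 differentiated muscle markers, including Ckm and Acta1, FPKM was 16.2 in either day 0 column, 21600 and 4610 in the day 6 control and knockdown, 17300 and 3170 at day 8, and 9420 and 4970 in the USP10 table. Of the 12, all 12 were at least 2-fold lower in knockdown cells at day 6 and at day 8, and 9 with USP10. The shares of all genes were 13.4%, 10.0% and 10.0%. The median log2 ratios of the markers were -2.81, -2.84 and -2.53. The summed FPKM of 5 myoblast markers was 433 and 222 in the control and knockdown at day 0, 2060 and 1290 at day 6, 1830 and 987 at day 8, and 1190 and 1110 in the USP10 table. Of these, Myod1 was at 21.8 and 9.30 FPKM at day 0, and Pax7 at 7.54 and 0.0438 at day 6. Myf5 went the other way, at 3.5 and 18.5 FPKM at day 6 and 4.79 and 20.2 in the USP10 table. Cdh15 was at 121 FPKM in both the day 6 control and knockdown, and Des, at 1769 and 1083, made up most of the sum there. The summed FPKM of 7 mesenchymal markers, with Ly6a the most abundant of them in the treated day 6 columns, was 14.9 and 797 in the day 6 control and knockdown, 125 and 574 in the USP10 table, 106 and 63.6 at day 8, and 55.6 and 60.8 at day 0. Of those reaching 1 FPKM, 6 of 6 were higher at day 6, against 17.6% of all genes, and 3 of 6 with USP10, against 9.70%. At day 8, 1 of 5 was higher, against 7.89%, and 2 were lower, against 10.0%. Pdgfrb went the other way in the USP10 table, at 52.1 and 33.5 FPKM, and Pdgfra at day 8, at 1.95 and 7.74. Adipoq was at 0 in every column, Emr1, a macrophage gene, likewise, and the summed level of 5 macrophage markers lay between 0.885 and 4.65 FPKM. The 5 adipocyte markers summed to between 7.90 and 19.6 FPKM over all columns, and Fabp4 among them was at 0.287 and 1.33 at day 0, 0.348 and 4.68 at day 6, 0.116 and 0.454 at day 8, and 0.535 and 3.84 in the USP10 table. Of 4 endothelial markers, Cdh5 was at 0.0241 and 6.83 FPKM in the day 6 control and knockdown, 0.278 and 6.81 in the USP10 table and 13.5 and 11.2 at day 0, and Tek at 0.0616 and 1.08 at day 6, whereas Pecam1 stayed at or under 0.346 and Kdr at or under 0.0420 in every column. The part of these shifts in the results below was not tested. In cultures of mixed cells, fewer cells of a type and less RNA per cell cannot be told apart.

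Because the study concerns TBP, the protein that binds the TATA box, the promoters of the genes were searched for TATAAA on both strands. RefSeq windows of GRCm38.p6, the build of the deposited mm10 loci, were matched for 8 of the 10 genes and not for Fst and Tgfb3. A TATAAA on the gene's strand began 29 bases before the start in Mstn and 31 bases in Tgfb2, whereas 1.84% of all 32851 windows had it between 20 and 35 bases before the start. It lay farther upstream in Inhba, at 91 bases, and in Gdf11, at 185 bases, and was not found in the 250 bases before the start of Inhbb, Acvr2b, Tgfb1 or Bmp4. Anywhere in these 250 bases and on either strand, 12.4% of windows held it. The Inhba window ended at base 16011850 and the deposited Inhba locus began farther downstream, at 16014475, so its distance counts from another start. The 150 bases before the start are printed below for the 2 genes with a TATAAA near the start and for Inhbb and Bmp4, the ligands that were higher at day 6 and day 8 of Huwe1 knockdown, 5′ to 3′ on the strand of the gene, with TATAAA in capitals.
Mstn, chr1:53061490-53061639, plus strand: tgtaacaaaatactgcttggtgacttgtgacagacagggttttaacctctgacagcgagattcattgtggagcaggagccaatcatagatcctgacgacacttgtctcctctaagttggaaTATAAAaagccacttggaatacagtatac
Tgfb2, chr1:186705990-186706139, minus strand: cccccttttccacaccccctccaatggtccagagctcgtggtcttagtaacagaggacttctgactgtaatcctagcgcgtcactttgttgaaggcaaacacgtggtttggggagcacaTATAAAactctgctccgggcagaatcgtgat
Inhbb, chr1:119422249-119422398, minus strand: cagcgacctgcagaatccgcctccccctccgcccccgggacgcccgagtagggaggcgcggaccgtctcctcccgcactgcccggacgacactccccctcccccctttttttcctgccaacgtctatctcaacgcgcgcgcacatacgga
Bmp4, chr14:46390670-46390819, minus strand: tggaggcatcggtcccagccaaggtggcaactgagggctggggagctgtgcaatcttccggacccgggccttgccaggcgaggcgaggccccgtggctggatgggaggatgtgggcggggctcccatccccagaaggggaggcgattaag
The share of G and C in the 250 bases was 38.4% in Mstn, 53.6% in Tgfb2, 68% in Inhbb and 63.2% in Bmp4, and ranged up to 81.2% in Gdf11, with a median of 52.4% over all windows. The E-box letters CANNTG, to which myogenic bHLH factors bind, occurred 4 times in Mstn, 3 times in Bmp4 and once each in Gdf11 and Tgfb2, and in 66.2% of all windows. CAGAC, which contains the Smad-binding letters, was found 2 times each in Mstn and Tgfb2 and once in Acvr2b, counting both strands, and in 42.2% of all windows. Both TATAAA genes differed in their values: Mstn stayed under 1 FPKM in all columns and Tgfb2 reached 47.8.

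At day 6 of differentiation, 4 of the 8 genes that reached 1 FPKM were at least 2-fold higher in Huwe1 knockdown cells than in the control of the same table, against 17.6% of all 11695 genes tested, and 2 were at least 2-fold lower, against 13.4%. Inhba, Inhbb, Bmp4 and Gdf11 were higher, and Fst and Tgfb3 were lower. In day 8 myotubes, Inhbb, Bmp4 and Acvr2b made up 3 of 9 that were higher, against 7.89%, and 0 were lower, against 10.0%. At day 0, Fst was the 1 of 7 that was higher, against 1.90%, and 0 were lower, against 1.69%. With USP10, Fst and Tgfb3 were the 2 of 8 that were lower, against 10.0%, and 0 were higher, against 9.70%. The median log2 ratio of those genes was 0.94 at day 6 of knockdown, -0.24 at day 0, -0.04 at day 8 and -0.23 with USP10, while the median of all genes lay between -0.01 and 0.05. Against the control of the USP10 table, the day 6 knockdown had 0 higher and 4 lower genes. Against the control of the Huwe1 table, USP10 cells had 5 higher genes, Inhba (3.51), Bmp4 (3.01), Inhbb (1.98), Gdf11 (1.18) and Tgfb1 (1.01), and 2 lower, so the higher values at day 6 depended on the control column used. Fst at day 0 and Acvr2b at day 8 reached 1 FPKM only in the treated column, where they are high. Without them the count of higher genes was 0 at day 0 and 2 at day 8.

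**Figure D1:**
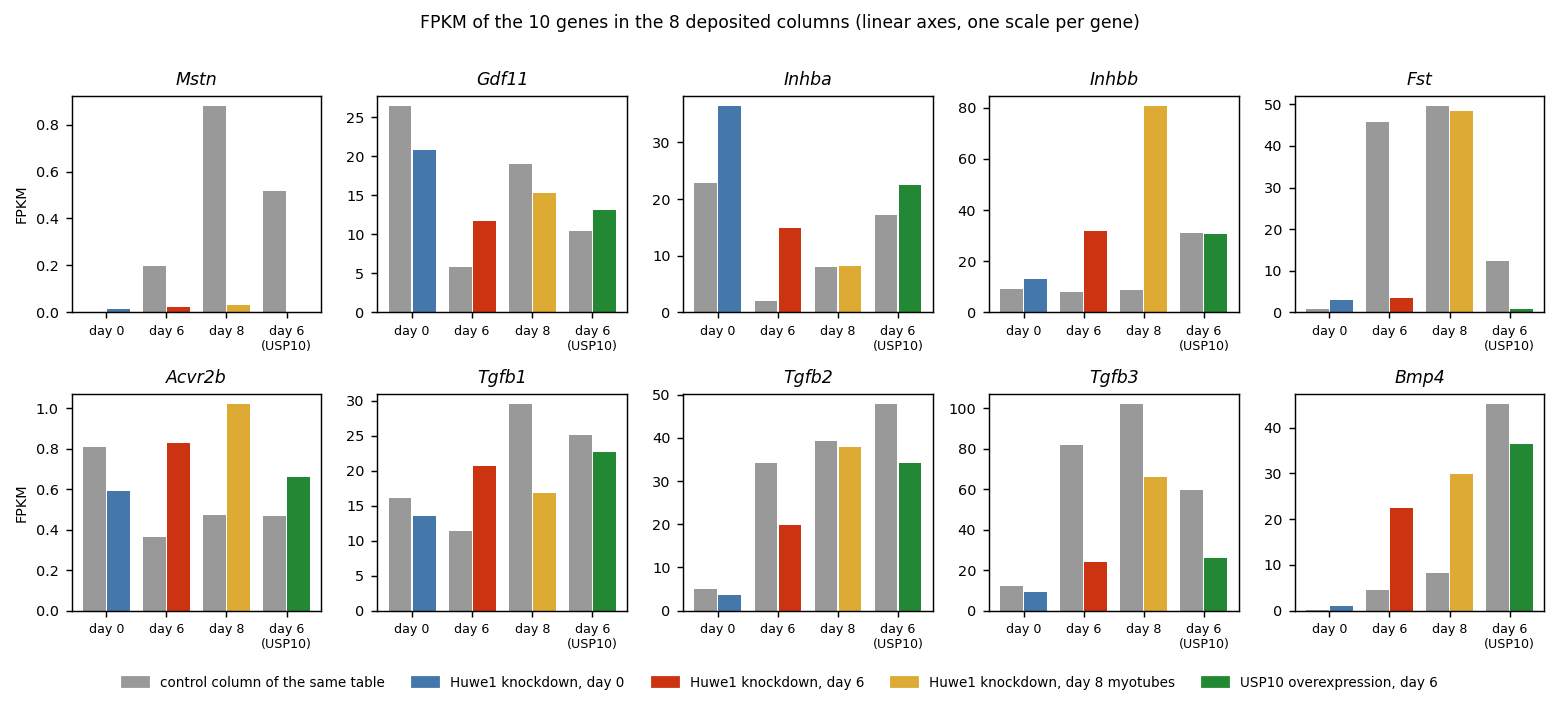
FPKM of each of the 10 genes on its own linear axis, with control bars in grey and treated bars in colour, for the 3 Huwe1 tables and the USP10 table. A bar is 1 deposited value and has no error bar; Fst is high in the controls of day 6 and day 8 (45.8 and 49.6 FPKM) and Inhbb highest in day 8 knockdown myotubes (80.8).

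Among the ligands of the activin type II receptors, Mstn, on chromosome 1 from 53061663 to 53068079, encodes myostatin, the muscle-derived inhibitor of muscle growth. Its control values were 0 FPKM at day 0, 0.197 at day 6, 0.879 at day 8 and 0.519 in the USP10 table. The treated values were 0.0164 at day 0, 0.0214 at day 6 and 0.0302 at day 8 of knockdown and 0 in USP10 cells. It was thus lower in the treated column at each time after day 0, but no value reached 1 FPKM and the gene was counted in none of the comparisons. The log2 ratio was -2.72 at day 6 and -4.47 at day 8 of knockdown, and with USP10 no ratio was computed because the gene was listed at 0. The control values stood on about 16, 43 and 11 fragments at day 6, day 8 and in the USP10 table, with exact 95% Poisson intervals of 0.113 to 0.321, 0.635 to 1.18 and 0.26 to 0.93 FPKM, which cover counting error only. In the USP10 library a count of 3 fragments would have been 0.0401 FPKM, under the lower bound of its control.

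Gdf11, on chromosome 10 from 128884546 to 128891718, encodes the ligand closest to myostatin in sequence. It was at 26.4 FPKM in control and 20.8 in knockdown cells at day 0, at 5.83 and 11.7 at day 6, at 19.0 and 15.2 at day 8, and at 10.4 and 13.1 in the USP10 table. All 8 columns were above 5 FPKM, and its lowest value was that of the day 6 control of the Huwe1 table. The day 6 log2 ratio of 1.00 lay at the 2-fold limit and fell short of it, at 0.99, with 0.1 FPKM added in place of 0.01, and the other 3 ratios were between -0.35 and 0.33.

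Activin A is a dimer of the product of Inhba, and activin B of that of Inhbb. Inhba, on chromosome 13 from 16014475 to 16027211, was at 22.8 FPKM in control and 36.4 in knockdown cells at day 0, at 1.98 and 14.9 at day 6, at 7.96 and 8.17 at day 8, and at 17.2 and 22.5 in the USP10 table. Its knockdown value at day 6 was 7.56-fold above the control of its table, with a log2 ratio of 2.91, and it was 1.03-fold above at day 8. The 2 day 6 controls differed by more, 8.71-fold, and against the USP10-table control the knockdown had a log2 ratio of -0.26. Inhbb, on chromosome 1 from 119415465 to 119422248, was at 9.08 FPKM and 13.1 at day 0, at 7.77 and 31.8 at day 6, at 8.90 and 80.8 at day 8, and at 30.9 and 30.5 in the USP10 table. The 3 controls of the Huwe1 tables were close to each other, and the knockdown was 4.09-fold higher at day 6 and 9.08-fold higher at day 8. The USP10-table control, however, was 3.98-fold above the other day 6 control and against it the day 6 knockdown ratio was -0.02. The day 8 value has no second control to set it against.

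Fst, on chromosome 13 from 114452262 to 114458730, encodes follistatin, the secreted protein that binds activins and myostatin. It was at 0.784 FPKM in control and 2.98 in knockdown cells at day 0, at 45.8 and 3.51 at day 6, at 49.6 and 48.4 at day 8, and at 12.4 and 0.863 in the USP10 table. Follistatin mRNA was thus low in myoblasts and lower in the treated than in the control column of either day 6 table, and nearly the same in both day 8 columns. The difference was 13.1-fold with Huwe1 knockdown, a log2 ratio of -3.70, and 14.3-fold with USP10, a log2 ratio of -3.83 that became -2.84 with 1 FPKM added, since the USP10 value was under 1 FPKM. It kept its direction and stayed past 2-fold when each treated column was set against the control of the other table, with log2 ratios of -1.87 and -5.70, and each treated value was below both control values. At day 0 the knockdown was 3.80-fold higher, a log2 ratio of 1.91, from a control value standing on about 50 fragments, with an interval of 0.58 to 1.03 FPKM. The knockdown value at day 0, 2.98, and that at day 6, 3.51, were close, whereas the controls of those tables differed 58.4-fold.

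Acvr2b, on chromosome 9 from 119402501 to 119433506, encodes activin receptor type IIB, the main receptor of myostatin. It was at 0.810 FPKM in control and 0.593 in knockdown cells at day 0, at 0.366 and 0.830 at day 6, at 0.474 and 1.02 at day 8, and at 0.469 and 0.659 in the USP10 table. It reached 1 FPKM only in day 8 knockdown myotubes, where the log2 ratio was 1.09 and dropped to 0.46 with 1 FPKM added. Its values in single libraries stood on 12 to 58 estimated fragments.

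**Figure D2:**
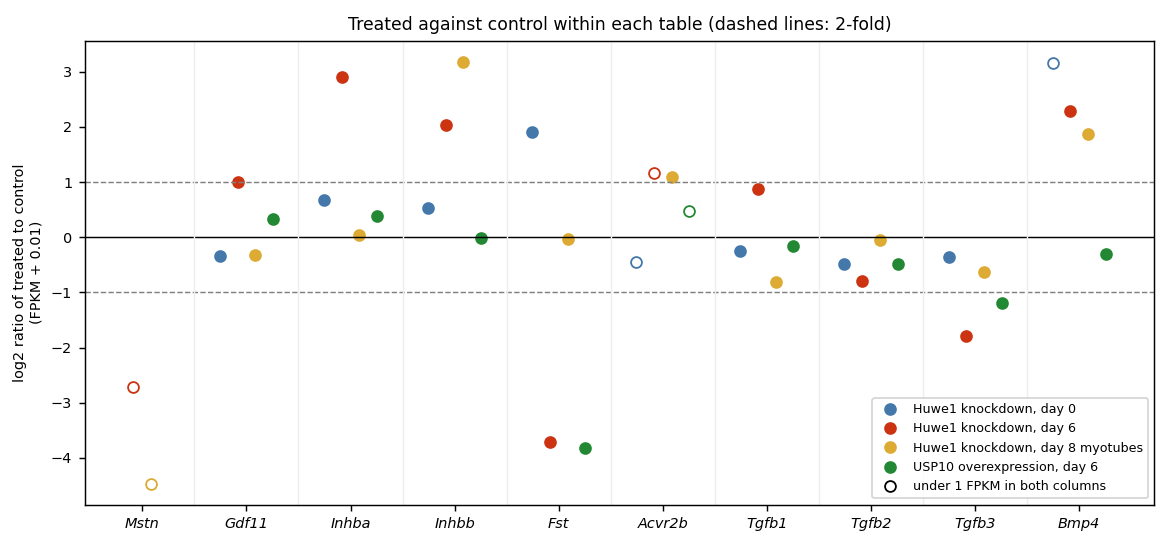
Log2 ratio of treated to control FPKM within a table (vertical axis, 0.01 FPKM added) for each gene and comparison, with dashed lines at 2-fold and open circles for genes under 1 FPKM in both columns. Ratios against a column listed at 0 are left out; Fst lies at -3.70 and -3.83 in the day 6 comparisons and at -0.04 in day 8 myotubes.

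The TGF-betas are secreted in latent complexes and signal through TGF-beta receptor type II. Tgfb1, on chromosome 7 from 25687002 to 25704996, was at 16.0 FPKM in control and 13.5 in knockdown cells at day 0, at 11.3 and 20.7 at day 6, at 29.5 and 16.9 at day 8, and at 25.1 and 22.6 in the USP10 table. It was past 2-fold in 0 of the 4 comparisons, with log2 ratios from -0.81 at day 8 to 0.87 at day 6. With the day 6 controls exchanged, the ratio was -0.33 in the knockdown, the opposite direction, and 1.01 with USP10, past 2-fold. Tgfb2, on chromosome 1 from 186623186 to 186705992, was at 5.06 FPKM and 3.62 at day 0, at 34.3 and 19.7 at day 6, at 39.2 and 37.9 at day 8, and at 47.8 and 34.1 in the USP10 table. It too was past 2-fold in 0 comparisons, although the treated column was the lower in all 4, by log2 ratios of -0.05 to -0.80, of which that at day 8 was above the -0.38 of the median housekeeping gene. With the controls exchanged it was past 2-fold in the day 6 knockdown, with a log2 ratio of -1.33, and at 0 with USP10. Tgfb3, on chromosome 12 from 86056743 to 86079041, had the highest single value of the 10 genes. It was at 12 FPKM and 9.32 at day 0, at 82.0 and 23.8 at day 6, at 102 and 66.2 at day 8, and at 59.6 and 26.1 in the USP10 table. The treated column was again the lower in all 4, 3.44-fold at day 6 of knockdown and 2.28-fold with USP10, with log2 ratios of -1.78 and -1.19. Both treated day 6 values were below both day 6 controls, and with the controls exchanged the log2 ratios were -1.38 and -1.64.

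Bmp4, on chromosome 14 from 46379524 to 46390599, encodes bone morphogenetic protein 4. It was at 0.0935 FPKM in control and 0.909 in knockdown cells at day 0, at 4.56 and 22.4 at day 6, at 8.15 and 29.8 at day 8, and at 45.1 and 36.5 in the USP10 table. Within the Huwe1 tables the knockdown was the higher each time, 4.92-fold at day 6 and 3.66-fold at day 8, with log2 ratios of 2.30 and 1.87, and at day 0 both columns were under 1 FPKM and the control stood on about 4 fragments, with an interval of 1.09 to 10.2. The highest value of all was the control of the USP10 table, 9.90-fold above the other day 6 control. Against it the day 6 knockdown was lower, with a log2 ratio of -1.06.

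The 2 day 6 controls, set side by side without a test, were at least 2-fold apart in 5 of the 8 genes with at least 1 FPKM in a column, against 19.9% of all genes. Inhba, Inhbb, Tgfb1 and Bmp4 were higher in the control of the USP10 table and Fst was lower, and these are the directions in which Huwe1 knockdown differed from its own control, with Tgfb1 short of 2-fold. This control also had the lower summed level of muscle markers, 9420 against 21600 FPKM, and the higher summed level of mesenchymal markers, 125 against 14.9. The 2 treated columns were closer, with 1 of 8 genes at least 2-fold apart, against 9.59% of 11351 genes. That gene was Fst, 4.06-fold higher with Huwe1 knockdown than with USP10, while Gdf11, Inhbb, Tgfb1 and Tgfb3 were within 1.12-fold of each other.

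**Figure D3:**
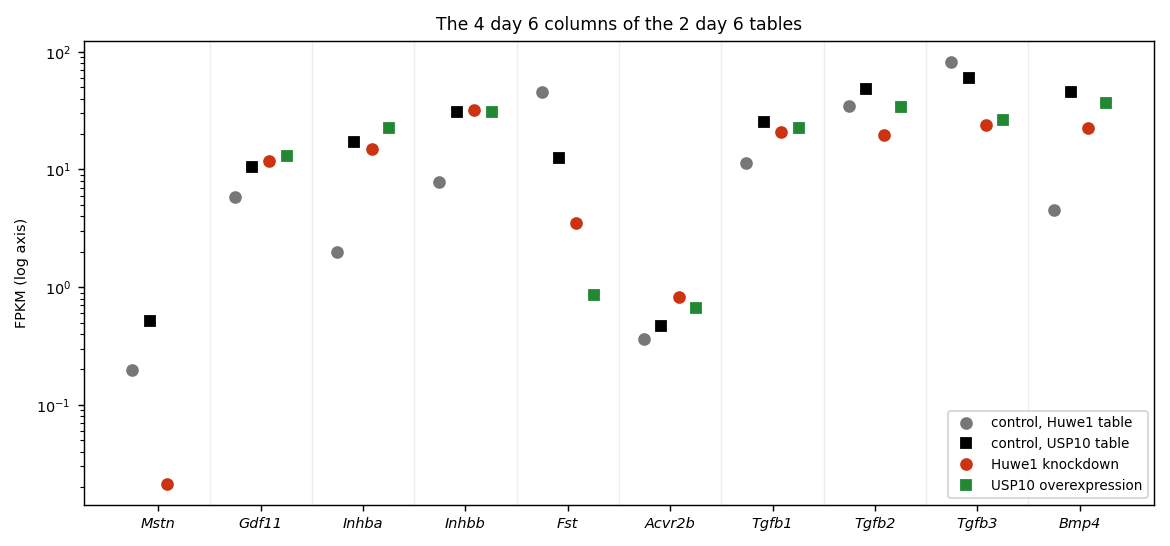
FPKM on a log axis for each gene in the day 6 columns, with circles for the Huwe1 table and squares for the USP10 table. Inhba and Bmp4 are far lower in the control of the Huwe1 table (1.98 and 4.56 FPKM) than in that of the USP10 table (17.2 and 45.1), and both treated values of Fst and Tgfb3 are below both controls; Mstn with USP10 is listed at 0 and is not drawn.

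Across the control columns, which were normalized separately and are given as a description, Fst, Tgfb2, Tgfb3 and Bmp4 were higher after differentiation than at day 0. In the day 6 control of the Huwe1 table they were 58.4-fold, 6.77-fold, 6.83-fold and 48.8-fold higher, in day 8 control myotubes 63.3-fold, 7.75-fold, 8.5-fold and 87.2-fold, and in the other day 6 control 15.8-fold, 9.45-fold, 4.97-fold and 483-fold. Gdf11 and Inhba were lower than at day 0 in all 3, by 4.53-fold and 11.6-fold at day 6, by 1.39-fold and 2.87-fold at day 8, and by 2.54-fold and 1.33-fold in the other day 6 control. Inhbb was within 1.17-fold of its day 0 level at day 6 and day 8 but 3.41-fold higher in the other day 6 control, and Tgfb1 was lower than day 0 in the first day 6 control and higher in the other columns. The median gene shifted by -0.10 to 0.03 on the log2 scale over these pairs and the median of 14 housekeeping genes by -0.58 to -1.06. Relative to the housekeeping genes, the lower values of Tgfb1 at day 6, Gdf11 at day 8 and Inhba in the other day 6 control turned higher. The same held for Inhbb, at -0.22 against -1.06 at day 6 and -0.03 against -0.58 at day 8.

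Over 8 columns and 12631 genes, the gene with the log2 FPKM pattern nearest to that of Fst was Gabre, with a Pearson correlation of 0.994, followed by Ubn2 and Zkscan7. The nearest to Tgfb2 was Jmy, at 0.991, that to Tgfb3 was Gfra4, also at 0.991, and those to Inhbb and Bmp4 were Rspo2 and Lpar4, both at 0.986. Fam131b was nearest to Inhba at 0.985, Tcf3 to Gdf11 at 0.984 and Rcn3 to Tgfb1 at 0.924. These correlations are descriptions over few columns, which share a normalization in pairs, and were chosen as the highest among many genes.

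The genes were set in a pathway list of 103 genes in 10 roles, chosen from general knowledge but with earlier results of these data known. At day 6 of knockdown 70 of these had at least 1 FPKM in a column, of which 16 were lower and 23 higher, or 22.9% and 32.9% against 13.4% and 17.6% of all genes. Of the genes other than the 10, 14 of 62 were lower and 19 higher. At day 8, 8 of 75 were lower and 14 higher, or 10.7% and 18.7% against 10.0% and 7.89% of all genes. At day 0, 3 of 60 were lower and 5 higher, or 5% and 8.33% against 1.69% and 1.90%. With USP10, 20 of 74 were lower and 6 higher, or 27% and 8.11% against 10.0% and 9.70%. The shares of lower genes at day 8 and of higher genes with USP10 were thus near those of all genes. With at least 1 FPKM required in both columns, 8 pathway genes were lower with USP10. The rest of the 20 had passed the minimum only through the control column, where they are high. Over all genes, the lower count with USP10 went from 1153 to 669 under the same requirement. With the controls exchanged, the higher pathway genes numbered 10 at day 6 of knockdown and 22 with USP10.

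Among the other ligands, Bmp6, a bone morphogenetic protein, was at 13.3 FPKM in the day 6 control and 0.189 in the knockdown and at 2.76 and 0.0447 in the USP10 table, but at 19.6 and 40.0 at day 8. Gdf5, a ligand of joints and tendons singled out after its values were seen, was lower in each comparison after day 0, at 3.94 and 0.108 FPKM at day 6, 2.55 and 0.0822 at day 8, and 1.11 and 0.0467 in the USP10 table. Gdf6 was higher at day 8, at 1.65 and 5.41 FPKM. Of 22 ligands listed, 11 reached 1 FPKM at day 6 of knockdown. The 4 higher ones, against 17.6% of all genes, were Gdf11, Inhba, Inhbb and Bmp4, and the 3 lower ones, against 13.4%, Bmp6, Gdf5 and Tgfb3.

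Of 3 type II receptors expressed at day 6, Tgfbr2, the TGF-beta binding receptor, was higher, at 32.9 FPKM in control and 138 in knockdown cells, and of 4 type I receptors its partner Tgfbr1 was lower, at 32.2 and 13.4, while 17.6% of all genes were higher and 13.4% lower. In the other day 6 control Tgfbr2 was at 41.8 FPKM and Tgfbr1 at 14.3, the latter near its knockdown value. With USP10, 2 of 6 type I receptors were lower, against 10.0% of all genes, Acvrl1 at 1.12 and 0.469 FPKM and Bmpr1b at 1.40 and 0.225, both named after their values were seen. Smad1, a transducer of BMP signals, was lower in both day 6 tables, at 25.9 and 7.21 FPKM with knockdown and 22.3 and 6.63 with USP10. It was the lower 1 of 5 Smads in either, against 13.4% and 10.0% of all genes. The TGF-beta co-receptor Tgfbr3 was higher in all 4 comparisons, at 2.90 and 6.49 FPKM at day 0, 1.86 and 18.1 at day 6, 2.76 and 7.92 at day 8, and 5.08 and 13.4 with USP10. The BMP co-receptor gene of muscle, Hfe2, was lower in 3, at 175 and 21.7 FPKM at day 6, 103 and 50.0 at day 8, and 52.0 and 6.59 with USP10. Of 8 intracellular inhibitors, 2 were higher and 0 lower at day 6 of knockdown, 1 was higher and 1 lower at day 8, and 1 was higher and 2 lower with USP10. The shares of higher and lower genes among all genes were 17.6% and 13.4%, 7.89% and 10.0%, and 9.70% and 10.0%. The ligase Smurf1 was higher in both day 6 tables, with log2 ratios of 1.74 and 1.59, and Ski, a corepressor of Smads, was higher at day 6 of knockdown, with 1.49, though it was at 21.0 FPKM in the other day 6 control, next to 26.9 in the knockdown. Pmepa1, which sequesters Smads, was lower at day 8 and with USP10, with -1.01 and -1.48, and the inhibitory Smad6, named after its values were seen, was lower with USP10, with -1.63.

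Of the secreted antagonists, to which Fst belongs, 5 of 10 were higher and 3 lower at day 6 of knockdown, against 17.6% and 13.4% of all genes, and 2 of 10 were higher and 4 lower with USP10, against 9.70% and 10.0%. Dcn, decorin, a proteoglycan that binds TGF-beta, was at 7.94 and 2987 FPKM in the day 6 control and knockdown and at 50.3 and 3037 in the USP10 table, and Grem1, a BMP antagonist, was at 7.81 and 99.1 at day 6 and at 24.2 and 87.4 at day 0. In the USP10 table Grem1 was at 84.9 and 83.9 FPKM, so that the other day 6 control was near the day 6 knockdown value. Chrdl1, a chordin-like BMP antagonist, was at 30.6 and 0.0417 FPKM in the USP10 table and at 4.50 and 16.9 at day 8, and Chrd, chordin, at 12.7 and 2.78 at day 6. The other day 6 control had 2.89 FPKM of Chrd, near the knockdown value. Of the processing and latency genes, Fbn1 and Bmp1, for a matrix fibrillin and a proprotein-cleaving metalloprotease, were higher at day 6 with log2 ratios of 2.90 and 2.14. The other day 6 control had 105 FPKM of Fbn1, above the 102 of the knockdown, and 13.8 of Bmp1, below the 46.5 of the knockdown. Itgb6, a subunit of an integrin that releases TGF-beta, was lower with -1.95 at day 6, -1.07 at day 8 and -1.48 with USP10. Its day 6 knockdown value, 2.43 FPKM, was near the 2.3 of the other day 6 control.

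**Figure D4:**
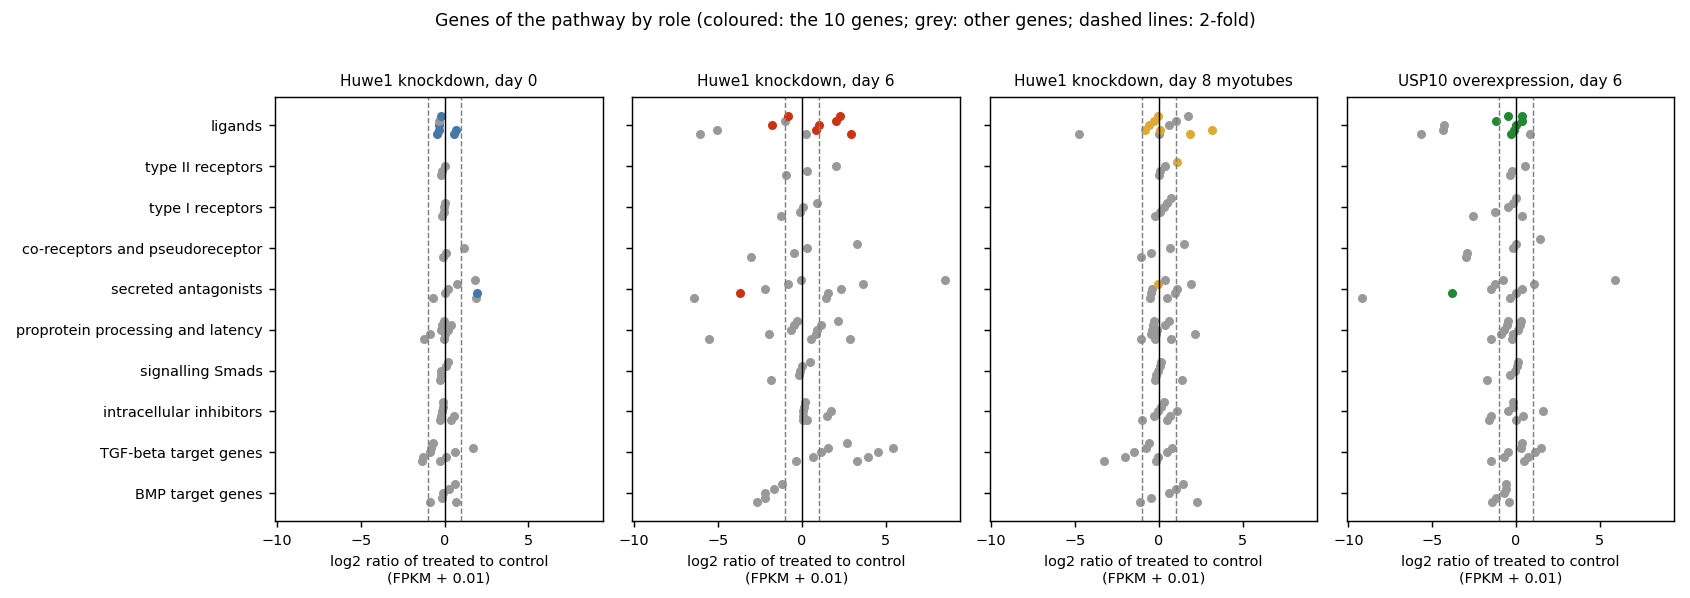
Log2 ratio of treated to control FPKM (horizontal axis, 0.01 FPKM added) for pathway genes with at least 1 FPKM in a column, by role, with the 10 genes in colour and other genes in grey. At day 6 of Huwe1 knockdown the TGF-beta target genes lie mostly to the right (7 of 9 at least 2-fold higher) and the BMP target genes to the left (5 of 5 at least 2-fold lower).

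Genes known to be induced by TGF-beta were higher at day 6 of knockdown in 7 of the 9 that reached 1 FPKM, against 17.6% of all genes, with a median log2 ratio of 2.68 against -0.01 for all genes. Ctgf, a matricellular growth factor, was at 6.04 and 260 FPKM, Col1a1, a collagen chain, at 4.61 and 107, and Postn, periostin, at 18.6 and 285. At day 8, 0 of 9 were higher, against 7.89% of all genes, and 3 lower, against 10.0%. Among the lower ones were Tnc, tenascin C, at 111 and 11.5 FPKM, and Tagln, transgelin, at 100 and 24.3. At day 0 Ctgf was higher, at 48.1 and 157 FPKM, and Postn and Tnc were lower, and with USP10 Ctgf and Col1a2 were higher and Tagln lower. The summed level of 10 target genes was 614 FPKM in the day 6 control of the Huwe1 table and 2570 in that of the USP10 table, next to 2950 in the day 6 knockdown, 2450 with USP10, 1870 in the day 0 control and 1920 in the day 8 control.

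Genes known to be induced by BMP were lower at day 6 of knockdown in 5 of the 5 that reached 1 FPKM, against 13.4% of all genes, and their median log2 ratio was -2.17. There Bmp4 was higher than in its own control and lower than in the other one, and Bmp6 was lower, at 13.3 and 0.189 FPKM. Id1 and Id2, inhibitors of bHLH factors, were at 17.3 and 5.4 FPKM and at 10.6 and 1.65, and the bHLH gene Atoh8 at 5.80 and 1.28. Among those under 1 FPKM at day 6, Msx2 went the other way, at 0.0311 and 0.524, and Msx1 was at 0.969 and 0.757. At day 8, where Bmp4 and Bmp6 were higher, 3 of 6 were higher, against 7.89% of all genes, and 1 lower, against 10.0%. Id1 was at 26.2 and 52.5 FPKM, Id3 at 47.2 and 127, Atoh8 at 5.25 and 25.4 and Hey1, a transcriptional repressor, at 22.2 and 10.1. A link between the levels of these ligands and of the target genes was not tested. With USP10, 2 of 6 were lower, against 10.0% of all genes, among them Atoh8 at 7.88 and 2.94 FPKM. At day 0, 0 of 6 were past 2-fold, against 1.69% of all genes lower and 1.90% higher. The summed level of 7 target genes was 63.4 and 75.0 FPKM in the 2 day 6 controls, 21.6 in the day 6 knockdown and 46.1 with USP10.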

How the data were processed

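RNA-seq was made from 10 libraries of C2C12 cells. The authors selected mRNA on oligo(dT) beads, prepared ScriptSeq libraries, mapped reads with Tophat and compared conditions with Cuffdiff. The submitters' processing notes name Bowtie2, Cuffdiff and mm10 without versions. The deposited values are FPKM in 8 columns of 4 tables that the authors normalized separately, and the tables also hold the authors' fold changes, test scores, p-values and q-values, which were not used. Samples were grouped by their labels. Members and gene lists were chosen with earlier results of these data known.

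Log2 ratios were taken within a table with 0.01 FPKM added, over genes that reached 1 FPKM in either column, and genes past 2-fold were counted. With 1 value per condition no test was possible. Every one of the 10 genes is named in each comparison, and of other pathway genes those past 2-fold with at least 5 FPKM in a column, at most the 3 largest in each direction and role. Further exceptions are Gdf5, Smad6, Acvrl1, Bmpr1b, Msx1, Msx2, the TGF-beta target genes set against the other day 6 control, and the marker genes. These were chosen after their values were seen. Bmp6, Itgb8 and Chrdl1 are also named where their values in other comparisons are given. The values of 1 gene on the lists are not reported here. Nearest patterns used log2(FPKM + 0.1). Depth was estimated from genes with transcripts of at least 1500 bases and could not be had for pooled columns. Listed starts were moved by 1 base to count from 1, which made 49.4% equal to RefSeq starts, against 3.14% as listed. The counting was tested on simulated data. As alternatives, 0.1 or 1 FPKM was added, the minimum was set to 5 FPKM, to 1 FPKM in both columns or to none, and further ones were loci of at least 500 bases, centring on the median gene and, chosen after seeing the data, the other day 6 control column. Python 3.11.15, numpy 2.4.6, pandas 2.3.3, scipy 1.17.1 and matplotlib 3.10.9 were used.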

Additional observations from a re-analysis of the deposited data

Results flagged for a closer look

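Of the 10 genes, Fst had log2 ratios of opposite sign, both past 2-fold, at day 0 (1.91) and day 6 (-3.70) of Huwe1 knockdown, a difference of -5.62. The day 0 ratio rests on a control under 1 FPKM, dropped to 1.16 with 1 FPKM added, and was not counted with a minimum of 5 FPKM or of 1 FPKM in both columns. The difference was not tested, for this gene or for those that follow, since each condition has 1 value. Among other pathway genes, the same held between day 0 and day 6 for Postn (-1.34 and 3.94, a difference of 5.27) and Itgb8, an integrin subunit (-1.25 and 1.12, a difference of 2.37). The day 6 ratios of both depended on the control column. In the other day 6 control Postn was at 147 FPKM and Itgb8 at 3.52, against 285 and 4.54 in the knockdown, in each case less than 2-fold apart. Between day 6 and day 8, the ratio turned from lower to higher in Bmp6 (-6.06 and 1.03, a difference of 7.09), Chrdl1 (-6.40 and 1.90, 8.30), Id1 (-1.68 and 1.00, 2.68), Id3 (-1.15 and 1.43, 2.58) and Atoh8 (-2.17 and 2.27, 4.44). The day 6 knockdown values of these genes were also below the other day 6 control.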

How the results depend on the processing

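Each ratio has no replicate check, and the depth of the pooled columns is unknown. The control column changed the most. Against the other day 6 control, chosen as an alternative after seeing the data, the knockdown log2 ratios of Inhba (-0.26), Tgfb1 (-0.33) and Bmp4 (-1.06) turned negative. That of Inhbb (-0.02) showed nearly no difference. With this control 4 of the 10 genes were lower and 0 higher, and 10 pathway genes were higher. With USP10 and the exchanged control, 5 of the 10 genes and 22 pathway genes were higher. The cause of the difference between the controls was not tested. A minimum of 5 FPKM left 0 of the 10 genes and 3 pathway genes higher at day 0 and 9 pathway genes lower with USP10. A minimum of 1 FPKM in both columns left 0 of the 10 genes higher at day 0, and with USP10 1 of them and 8 pathway genes lower. With no minimum, 3 of the 10 genes and 17 pathway genes were higher and 5 pathway genes lower at day 0, 1 of the 10 and 15 pathway genes were lower at day 8, and 11 pathway genes were higher with USP10. Adding 1 FPKM left 7 pathway genes higher at day 8, and adding 0.1 or 1 FPKM took Gdf11 at day 6 and Acvr2b at day 8 under 2-fold. Leaving aside the other control column, the remaining 91 of 104 counts stayed within 1.5 times. Of 48 counts over all genes, 25 did not. No paired analysis was possible because each condition has 1 value in a table, and leaving out a replicate could not be run for the same reason.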
